A study of Mus musculus with 53 samples.

Results

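The transcription factors that carry clock time from the circadian loop to other genes were followed in the sciatic nerve of mice on different diets. They are 7 genes of the 49568 listed for each sample: the PAR bZIP activators Dbp, Tef and Hlf, their antagonist Nfil3, and the clock-controlled repressors Ciart, Bhlhe40 and Bhlhe41. The members were chosen by their symbol from a list drawn up with earlier results of these data known, including values from the same group contrasts. Their differences between groups are therefore given as a description, with the standard error (SE) and the overlap of the groups. No p-value is printed for a member in a group contrast, and the numbers of members past a threshold stand beside the share of all genes with nothing read from them. All 7 members were above the limit on low values, a mean log2 value of 3.32, in every comparison.

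The samples were sciatic nerves of male C57BL/6J mice without any introduced allele, kept in 12 h of light and 12 h of dark with free access to food. SD mice ate the standard diet and were sampled at 16 weeks (n = 5) and 24 weeks of age (n = 8). HFD mice, the prediabetic model, ate a diet with 60% of its energy from fat from 5 weeks of age and were sampled at 16 weeks (n = 7) and 24 weeks (n = 7). HFD-STZ mice, the type 2 diabetes model, ate the same diet and were injected at 12 weeks of age with streptozotocin, a toxin of pancreatic beta cells, at 75 mg/kg and 3 days later at 50 mg/kg. They were sampled at 16 weeks (n = 5) and 24 weeks (n = 8). Dietary reversal (DR) returned mice of both models to the control diet from 16 weeks on for 8 weeks, giving the HFD-DR (n = 7) and HFD-STZ-DR (n = 6) groups at 24 weeks. The hour of the day at which the nerves were taken is not given in the sources used here, so a difference in clock phase and a difference in mean level over the day cannot be told apart for any gene below. The labels name no individual animals, and p-values measure the spread between these samples.

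In the circadian loop, ARNTL (BMAL1) and CLOCK bind E-box sequences and switch on the Per and Cry genes, whose proteins then repress them. Dbp, Tef and Ciart are among the genes that the same pair drives through E-boxes, so that their transcripts cycle against that of Arntl. DBP, TEF and HLF activate promoters through D-boxes, where NFIL3 (E4BP4) binds the same sequence and represses. Nfil3 itself is held down by the REV-ERB proteins (Nr1d1 and Nr1d2) through ROR elements, as Arntl is. CIART (CHRONO) and the basic helix-loop-helix proteins BHLHE40 (DEC1) and BHLHE41 (DEC2) repress genes driven by ARNTL and CLOCK.

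Promoter sequences were searched because the members are driven through different elements. The windows, from 250 bases before to 50 bases after each RefSeq start site in GRCm38.p6, were found for 6 of the 7 members, with 2 windows for Tef, and none was used for Bhlhe40. The E-box CACGTG, which reads the same on both strands, was in 7.15% of all 32851 windows. It occurred 3 times in the Ciart window, and 29 windows of the 32851 (0.0883%) held it 3 times or more. It occurred once in the Bhlhe41 window and once in each Tef window. The windows of Dbp, Hlf and Nfil3 held no CACGTG, which says only that these letters are not in these bases. AGGTCA, the core of ROR elements, searched on both strands, was in the Nfil3 window and in 16.3% of all windows. The cyclic AMP response element TGACGTCA was in the Hlf window and in 1.79% of all windows. The D-box TTANGTAA, searched on both strands, was in none of the members' windows and in 2.32% of all windows. These motifs do not overlap one another in the members' windows. The stretches before the start sites that carry the E-boxes are printed here 5′ to 3′ on the strand of the gene, with CACGTG in capitals. They are at chr3:95882252-95882478 (minus strand) for Ciart, chr15:81811246-81811311 (plus strand) for the second Tef window and chr6:145865559-145865603 (minus strand) for Bhlhe41.
Ciart: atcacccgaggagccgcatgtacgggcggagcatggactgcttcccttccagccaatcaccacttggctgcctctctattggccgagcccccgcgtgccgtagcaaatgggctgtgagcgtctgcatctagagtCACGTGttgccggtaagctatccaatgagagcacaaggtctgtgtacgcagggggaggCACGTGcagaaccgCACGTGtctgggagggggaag
Tef: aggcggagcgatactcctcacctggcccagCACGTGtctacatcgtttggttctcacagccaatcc
Bhlhe41: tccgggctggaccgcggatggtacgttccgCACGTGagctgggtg
The 3 copies of Ciart begin 116, 58 and 44 bases before its start site, that of Tef 138 bases and that of Bhlhe41 153 bases before.

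Each deposited value is on a log2 scale and was normalized between samples by the authors, and it is not a level per length, so levels are compared between groups and never between genes. Sequencing depth behind single values is unknown. Correlations between samples over 18069 genes ran from 0.916 to 0.994, and no pair of samples was identical. All 6 adipocyte and all 6 skeletal muscle markers were above the limit, none of them listed at 0 throughout. The log2 of the summed adipocyte markers lay between 11.40 and 17.12 over all samples and that of muscle markers between 9.82 and 20.93. In such bulk samples, fewer cells of a type and less RNA per cell cannot be told apart.

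**Figure D1:**
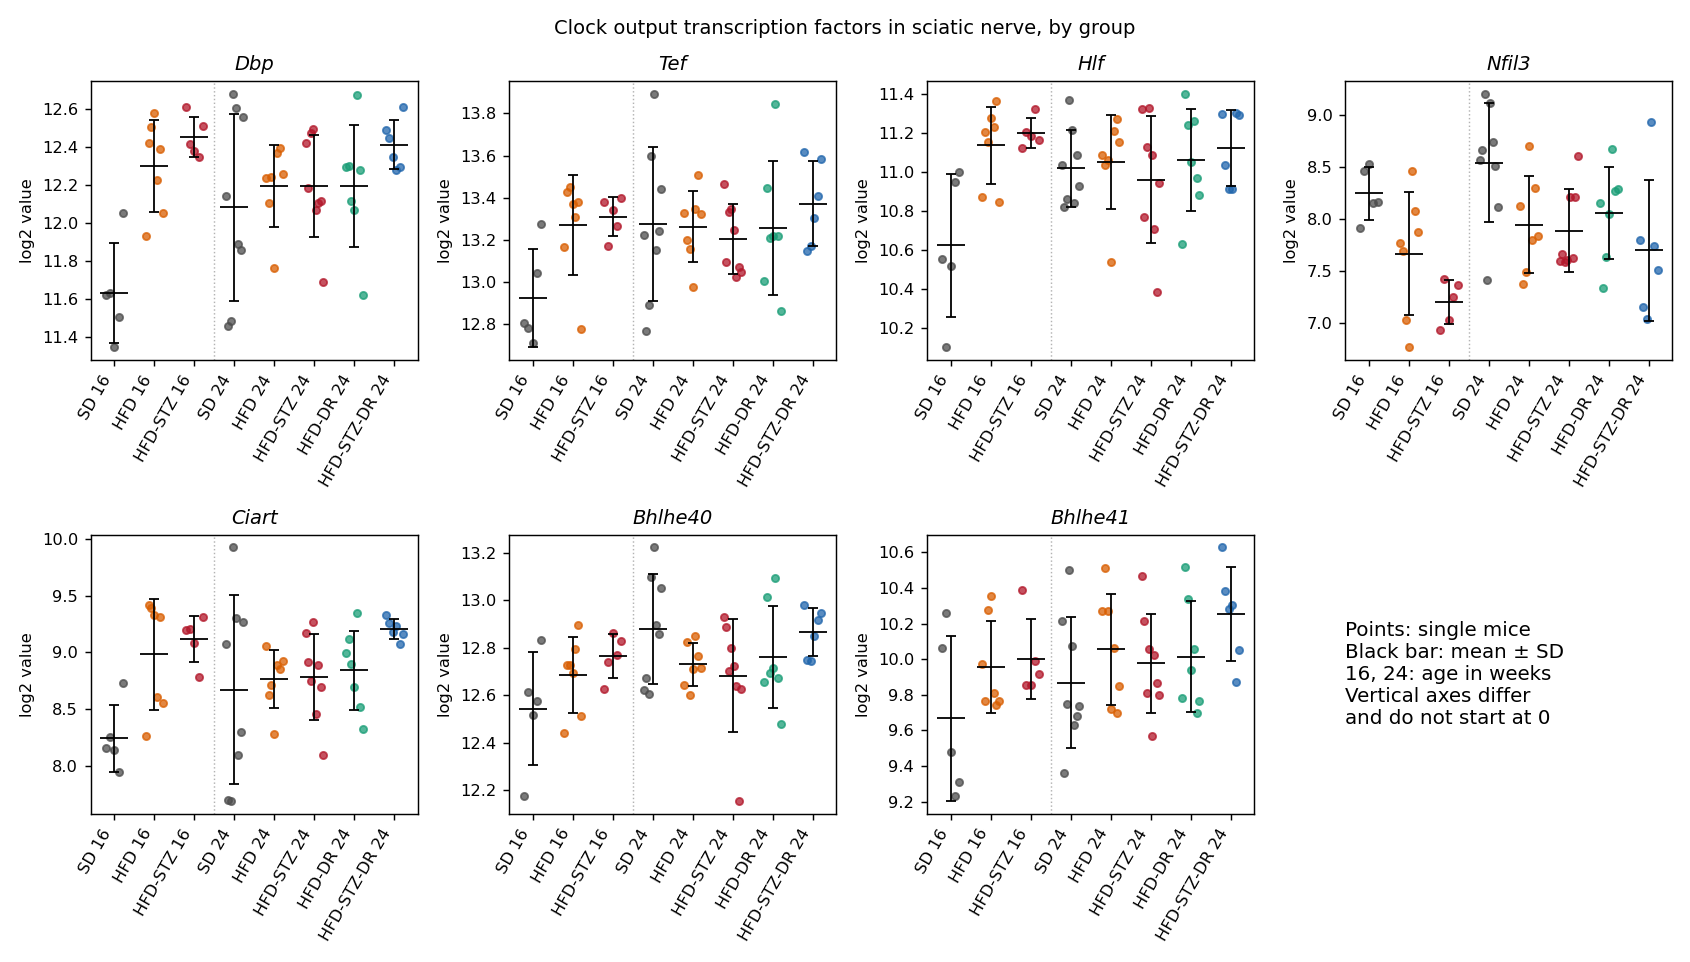
Log2 value of the 7 genes in each sample (points) of the 8 groups, with the group mean and SD in black; the vertical axes differ between genes and do not start at 0. The 16-week SD mice have the lowest mean for 6 genes, and for Nfil3 the 16-week HFD-STZ mice do.

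Dbp (chr7:45705088-45710203, plus strand, GRCm38 in GENCODE M21) encodes the PAR bZIP activator with the widest daily swing in many tissues. Its log2 values in the 16-week SD mice were 11.62, 11.63, 11.35, 11.50 and 12.06. In the 16-week HFD-STZ mice they were 12.61, 12.42, 12.38, 12.35 and 12.51, and in the HFD mice of that age they ran from 11.93 over a median of 12.39 to 12.58. Every HFD-STZ mouse was above every SD mouse at 16 weeks, while the lowest HFD mouse was below the highest SD mouse. The difference from SD was 0.67 (SE 0.13) in HFD mice and 0.82 (SE 0.12) in HFD-STZ mice, the latter 1.77-fold on the linear scale. At 24 weeks the SD mice spread from 11.46 to 12.68 with a median of 12.02, and this range covered that of all 7 HFD mice (11.76 to 12.39) and all 8 HFD-STZ mice (11.69 to 12.50). The difference from SD was then 0.11 in both models (SE 0.18 each). The order of the group means ran from HFD-STZ at 16 weeks (12.45 ± 0.11, SD, n = 5) down to SD at 16 weeks (11.63 ± 0.26, n = 5). The gap between SD at 24 and at 16 weeks, 0.45, was the 1 step between neighbours that exceeded the SD within groups of 0.29. This rule sets neighbouring means against the spread of single mice and does not test whether any of the other 7 groups differ. A share of 18.0% of Dbp exon bases also lies in exons of Sphk2 on the other strand, and as the libraries were not stranded, reads from there cannot be told apart.

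Tef (chr15:81802421-81826863, plus strand) encodes the thyrotroph embryonic factor, a second PAR bZIP activator. The 16-week SD mice had 12.81, 12.78, 12.71, 13.05 and 13.27, and the HFD-STZ mice of that age 13.38, 13.17, 13.34, 13.27 and 13.40. The groups overlapped, since the lowest HFD-STZ mouse was below the highest SD mouse. The 16-week HFD mice ran from 12.78 over a median of 13.37 to 13.45, with 6 of the 7 at 13.17 or above. The difference from SD was 0.35 (SE 0.13) in HFD and 0.39 (SE 0.11) in HFD-STZ mice at 16 weeks. At 24 weeks it was -0.01 (SE 0.14) and -0.07 (SE 0.13). Over all groups, Tef means spanned 0.45 on the log2 scale, from 12.92 in SD at 16 weeks to 13.37 in HFD-STZ-DR mice.

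Hlf (chr11:90336536-90390895, minus strand) encodes the hepatic leukaemia factor, the third activator of the family. Its log2 values in SD mice at 16 weeks were 10.55, 10.10, 10.52, 10.95 and 10.9995, all below the HFD-STZ mice at 11.12, 11.21, 11.19, 11.33 and 11.16. The 16-week HFD mice ran from 10.85 over 11.21 to 11.36. Hlf differed from SD by 0.51 (SE 0.15) in HFD and 0.58 (SE 0.15) in HFD-STZ mice at 16 weeks, and by 0.03 (SE 0.11) and -0.06 (SE 0.13) at 24 weeks. As for Dbp and Tef, the 1 step in the order of Hlf means that exceeded the SD within groups set the 16-week SD mice apart from the other 7 groups.

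Nfil3 (chr13:52967209-52981073, minus strand), the D-box repressor, had the opposite direction and was the member with the widest range of group means, 1.34 on the log2 scale. At 16 weeks the SD mice had 7.91, 8.46, 8.52, 8.15 and 8.17. The HFD-STZ mice had 6.93, 7.43, 7.03, 7.25 and 7.37, all below the SD mice. The HFD mice lay between, from 6.77 over a median of 7.77 to 8.46, and overlapped both. The difference from SD was -0.58 (SE 0.25) in HFD mice and -1.04 (SE 0.15) in HFD-STZ mice. At 24 weeks it was -0.59 (SE 0.25) in HFD and -0.65 (SE 0.23) in HFD-STZ mice, and the groups overlapped. The 24-week SD mice ran from 7.41 over 8.61 to 9.20, the HFD mice from 7.38 over 7.83 to 8.70 and the HFD-STZ mice from 7.58 over 7.65 to 8.60. The highest mean was that of SD at 24 weeks (8.54 ± 0.57, n = 8) and the lowest that of HFD-STZ at 16 weeks (7.20 ± 0.21, n = 5). No step between neighbouring groups exceeded the SD within groups of 0.49.

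Ciart (chr3:95878503-95882251, minus strand), the gene with the 3 E-boxes shown above, had the direction of Dbp. In SD mice at 16 weeks its values were 8.15, 8.26, 8.14, 7.94 and 8.73, all below the HFD-STZ mice at 9.20, 9.21, 9.08, 8.79 and 9.31. In the 16-week HFD mice, 4 values lay from 9.31 to 9.42 and 3 from 8.26 to 8.61. The difference from SD was 0.74 (SE 0.22) in HFD and 0.87 (SE 0.15) in HFD-STZ mice, against 0.09 (SE 0.30) and 0.11 (SE 0.30) at 24 weeks. The 24-week SD mice reached from 7.69 to 9.93, which held the lowest and the highest Ciart values of all 53 samples. By contrast, the 6 HFD-STZ-DR mice lay between 9.08 and 9.33.

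Bhlhe40 (chr6:108660629-108666925, plus strand) and Bhlhe41 (chr6:145858243-145865558, minus strand), which also respond to hypoxia and other signals, differed less. The Bhlhe40 values in SD mice at 16 weeks were 12.18, 12.61, 12.52, 12.58 and 12.83, against 12.63, 12.74, 12.86, 12.77 and 12.83 in HFD-STZ mice. Bhlhe40 differed from SD by 0.14 (SE 0.11) in HFD and 0.22 (SE 0.11) in HFD-STZ mice at 16 weeks, and by -0.15 (SE 0.09) and -0.20 (SE 0.11) at 24 weeks. For Bhlhe41 the 16-week SD mice had 10.06, 10.26, 9.48, 9.23 and 9.31, so that 2 of the 5 were above most HFD-STZ mice, which had 10.39, 9.86, 9.86, 9.99 and 9.91. Bhlhe41 differed from SD by 0.29 (SE 0.19) and 0.33 (SE 0.20) at 16 weeks and by 0.19 (SE 0.16) and 0.11 (SE 0.15) at 24 weeks. Neither gene set any group apart from its neighbours by more than the SD within groups, which was 0.19 for Bhlhe40 and 0.31 for Bhlhe41. Of the Bhlhe41 exon bases, 19.0% lie in exons of Gm43909 on the other strand.

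**Figure D2:**
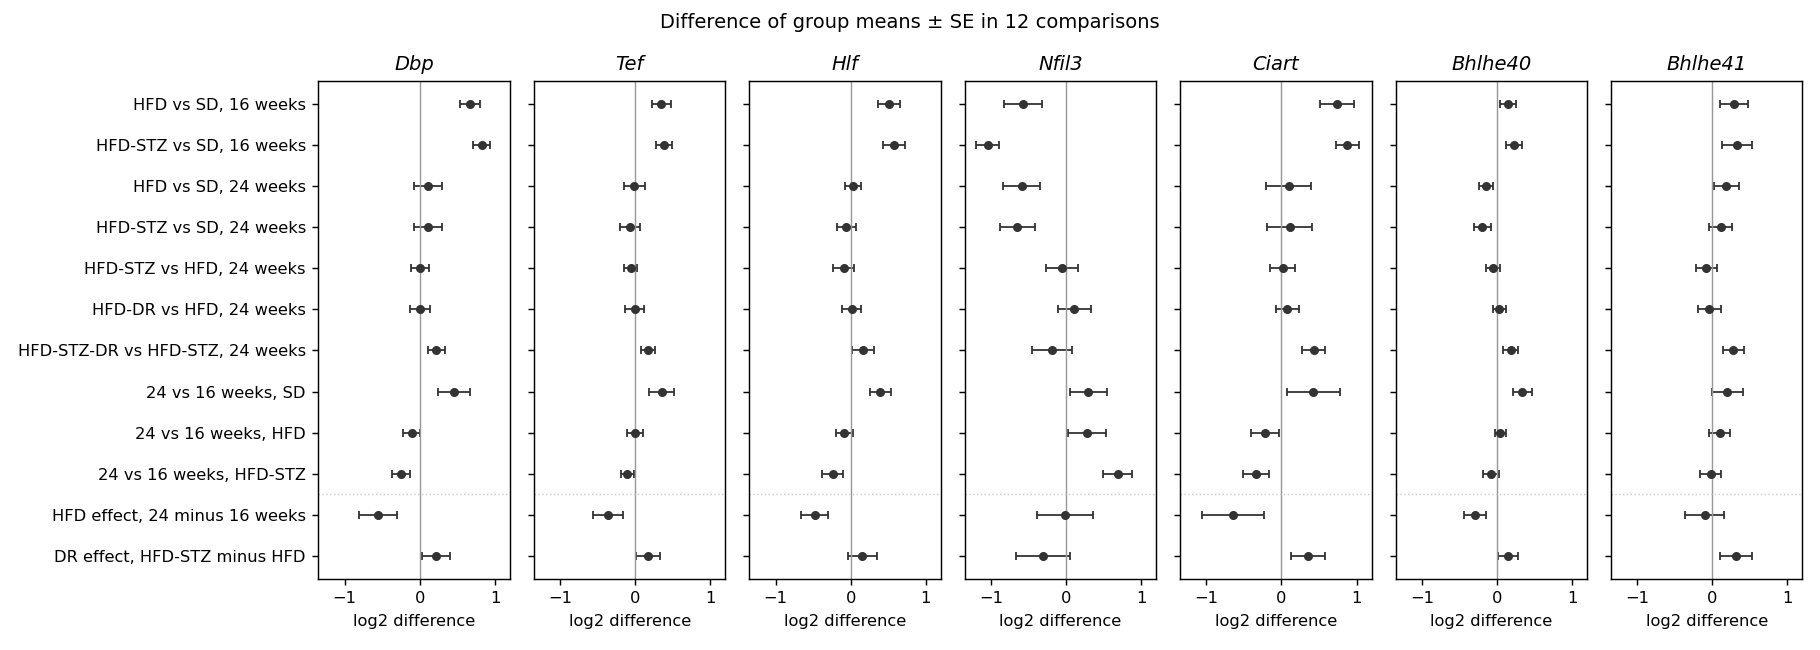
Difference of group means on the log2 scale (points) with its SE (bars) for each of the 7 genes in 10 pairs of groups and, under the dotted line, 2 differences of differences. At 16 weeks 6 genes lie right of 0 and Nfil3 left of it in both models, and against SD at 24 weeks Nfil3 alone lies more than 0.5 from 0.

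At 16 weeks, 6 of the 7 members were higher and 1 was lower in either model than in SD mice, with a median difference of 0.35 in HFD and 0.39 in HFD-STZ mice. The medians over all genes tested were 0.01 and 0.02. None of the 7 passed an adjusted p-value of 0.05 in limma with adjustment by Benjamini-Hochberg, a threshold that 0.00557% of all genes passed for HFD (1 of 17962) and 0% for HFD-STZ (0 of 17879). In each model 4 members (Dbp, Tef, Hlf and Ciart) had an unadjusted p-value under 0.05 and were higher, and 1 (Nfil3) had one and was lower, against 8.55% of all genes in either direction for HFD (1536 genes) and 8.41% for HFD-STZ (1504 genes). The groups did not overlap for 4 of the 7 members in HFD-STZ against SD mice, compared with 2.09% of all genes, and for 0 members in HFD against SD mice, compared with 0.562%. Nothing is read from these counts, because the members were chosen with these contrasts in view. Both comparisons use the same 5 SD mice. SD replicate 5 had the highest Dbp, Tef, Hlf and Ciart of its group, so leaving it out raises these differences by construction. Without it, Dbp alone passed the adjusted threshold between HFD-STZ and SD mice, with a difference of 0.93. A member passed in 1 of the 191 refits that each left out 1 sample, and nothing is read from this either.

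The samples fall into 8 runs of consecutive library numbers, each with mice of several groups, and the labels do not say what a run stands for. Within the 4 runs that held both HFD-STZ and SD mice of 16 weeks, the Dbp difference ran from 0.75 to 1.01. That of Nfil3 ran from -1.43 to -0.79. As these groups did not overlap for Dbp, Hlf, Ciart and Nfil3, the sign within a run was fixed for these genes. Tef and Bhlhe40 were higher in HFD-STZ mice in all 4 runs. SD replicate 5, the highest SD mouse of that age for Dbp, Tef and Bhlhe40, was in none of these runs, so they are not a separate check. Within the 5 runs with HFD and SD mice of 16 weeks, Dbp, Hlf and Ciart were higher in HFD mice in all 5, with Dbp differences from 0.17 to 1.23, and Nfil3 was lower in 4. A limma F-test of the run beside the group, over 18069 genes, found 337 genes (1.87%) past an adjusted p-value of 0.05 and 3581 (19.8%) past an unadjusted one. Of the members, 0 passed the adjusted threshold, and Nfil3 (F = 3.71, adjusted p = 0.0836) and Bhlhe41 (F = 3.66, adjusted p = 0.086) were the 2 past an unadjusted 0.05. Dbp varied little between runs (F = 0.18, adjusted p = 0.993).

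Other RNA also moved at 16 weeks. In HFD mice, 6 of 6 adipocyte markers were higher than in SD mice, 5 of them with an unadjusted p-value under 0.05, and the median difference was 2.19 on the log2 scale. In HFD-STZ mice the median was 0.87 and 0 of the 6 had such a p-value. The log2 of the summed adipocyte markers was 11.40 to 15.33 in SD, 15.06 to 16.83 in HFD and 12.24 to 15.85 in HFD-STZ mice of 16 weeks. The skeletal muscle markers had median differences of 0.19 in HFD and -1.25 in HFD-STZ mice. Those of the macrophage markers were 0.30 and 0.06, of the endothelial markers 0.14 and 0.10 and of the fibroblast markers -0.03 and 0.19, and 0 genes of these lists had an unadjusted p-value under 0.05 in either model. The part of these cells in the members' differences was not tested.

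At 24 weeks the members' differences from SD went in both directions. In HFD mice 4 of 7 were higher and 3 lower, and in HFD-STZ mice 3 were higher and 4 lower. The median differences were 0.03 and -0.06. The adjusted threshold was passed by 0 members, against 0.121% of all genes in HFD (22 of 18191) and 0.0336% in HFD-STZ mice (6 of 17846). In each model 1 member, Nfil3, had an unadjusted p-value under 0.05, against 9.05% and 5.99% of all genes. Between HFD-STZ and HFD mice of 24 weeks, which differ by the streptozotocin injections, the members' differences lay between -0.09 and 0.02. There 0 members passed either threshold, against 0% and 5.59% of all genes (0 and 1013 of 18117). All groups of 24 weeks overlapped for each member in these pairs, where 0.253%, 0.0616% and 0.0331% of all genes did not. Against SD at this age, the median difference of the adipocyte markers was 0.63 in HFD and 0.66 in HFD-STZ mice while single muscle markers differed by -2.11 to -1.39 and by -2.71 to -1.44, and their part was not tested.

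The HFD effect at 24 weeks minus that at 16 weeks was negative for all 7 members, though that of Nfil3 turned to 0.02 with each sample centred on its median. The values were -0.64 (SE 0.41) for Ciart, -0.56 (SE 0.25) for Dbp, -0.48 (SE 0.19) for Hlf, -0.36 (SE 0.20) for Tef, -0.29 (SE 0.14) for Bhlhe40, -0.10 (SE 0.26) for Bhlhe41 and -0.02 (SE 0.37) for Nfil3. In limma's test of this difference of effects, 0 members and 0% of all genes passed the adjusted threshold, while 2 members (Dbp and Hlf) and 1.67% of all genes (302 of 18087) had an unadjusted p-value under 0.05. The same difference of effects was negative for 6 of 6 adipocyte markers, with a median of -1.43, and for 6 of 6 muscle markers, with a median of -2.13, and their part was not tested.

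With age, all 7 members were higher in SD mice at 24 than at 16 weeks, by a median of 0.35 on the log2 scale. The 5 SD mice of 16 weeks are also the reference of both diet comparisons at that age and enter the HFD effect by age. These results are therefore not independent of one another. The difference was 0.45 (SE 0.22) for Dbp, 0.43 (SE 0.35) for Ciart, 0.40 (SE 0.14) for Hlf, 0.35 (SE 0.17) for Tef, 0.34 (SE 0.13) for Bhlhe40, 0.30 (SE 0.25) for Nfil3 and 0.20 (SE 0.21) for Bhlhe41. The adjusted threshold was passed by 0 members and 0% of all genes, and an unadjusted 0.05 by 2 members, Hlf and Bhlhe40, against 10.5% of all genes (1862 of 17788). In HFD mice the differences with age lay between -0.22 (Ciart) and 0.28 (Nfil3), and 0 members passed either threshold, against 0.0654% and 5.9% of all genes. In HFD-STZ mice Dbp was lower at 24 weeks by a difference of -0.26 (SE 0.12) and Nfil3 higher by 0.69 (SE 0.19), with every 24-week mouse above every 16-week mouse for Nfil3. These were the 2 members with an unadjusted p-value under 0.05 there, against 12.5% of all genes, and 0 members and 0% of all genes passed the adjusted threshold. Groups that did not overlap made up 0.495% of all genes in SD, 0.223% in HFD and 1.11% in HFD-STZ mice, and among the members 0, 0 and 1. Within the 5 runs that held both ages, the Nfil3 difference was 0.24 to 0.84 in HFD-STZ mice, where the lack of overlap already fixed its sign. In HFD mice, whose ages overlapped, Nfil3 was higher at 24 weeks in all 5 such runs (0.24 to 0.72). The 6 adipocyte markers had a median difference with age of 1.68 in SD, 0.22 in HFD and 1.37 in HFD-STZ mice, and the 6 muscle markers 2.59, 0.48 and 1.77. Their part in the members' values was not tested.

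Dietary reversal in HFD mice gave small differences. The HFD-DR mice differed from 24-week HFD mice by between -0.04 and 0.11 on the log2 scale, and Dbp by 0.00 (SE 0.13). Dbp ran from 11.62 over 12.28 to 12.68 in HFD-DR mice, a range that held all 7 HFD mice. Of the members, 0 passed either threshold, against 0.0108% (2 of 18475) and 6.72% of all genes. In the diabetes model, 6 of 7 members had a higher mean after reversal and Nfil3 a lower one, -0.19 (SE 0.27). Ciart was higher by 0.43 (SE 0.15), with HFD-STZ mice from 8.09 over 8.82 to 9.27 and the DR mice from 9.08 over 9.21 to 9.33, so that the groups overlapped. Bhlhe41 differed by 0.28 (SE 0.14), Dbp by 0.22 (SE 0.11), Bhlhe40 by 0.18 (SE 0.10), Tef by 0.17 (SE 0.10) and Hlf by 0.17 (SE 0.14). The adjusted threshold was passed by 0 members and 0.084% of all genes (15 of 17862), and an unadjusted 0.05 by 1 member, Ciart, against 6.48%. Groups without overlap were found for 0 members in either reversal, against 0.119% and 0.23% of all genes. The reversal effect in HFD-STZ minus that in HFD mice was 0.35 (SE 0.22) for Ciart and 0.22 (SE 0.18) for Dbp, and 0 members passed either threshold for it, against 0% and 1.71% of all genes. With reversal, the median difference of the 6 adipocyte markers was -1.08 in HFD and -2.07 in HFD-STZ mice and that of the 6 muscle markers 2.79 and 0.99, and the part of these tissues was not tested.

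The genes of the loop that drives these factors were read from a list of 16 core clock genes, all of them tested, and 0 of the 16 passed the adjusted threshold in any of the 12 comparisons. At 16 weeks, 2 higher and 2 lower core clock genes in HFD mice, and 4 higher and 2 lower in HFD-STZ mice, had an unadjusted p-value under 0.05, against 8.55% and 8.41% of all genes. Arntl, the activator of the loop, had 10.37, 10.33, 10.01, 9.94 and 9.61 in SD mice and 9.35, 9.28, 9.33, 9.20 and 8.72 in HFD-STZ mice of 16 weeks, all lower than in SD. Arntl differed from SD by -0.76 (SE 0.21) in HFD and -0.88 (SE 0.16) in HFD-STZ mice at 16 weeks, and by -0.49 (SE 0.16) and -0.49 (SE 0.20) at 24 weeks. Clock, its partner in the loop described above, differed at 16 weeks by -0.06 (SE 0.11) and 0.01 (SE 0.12). Npas2, on the same list, had a mean of 7.43 in SD, 6.33 in HFD and 6.61 in HFD-STZ mice of that age. Of the repressor genes, Per3 differed at that age by 0.53 (SE 0.17) and 0.65 (SE 0.17), Per2 by 0.45 (SE 0.23) and 0.45 (SE 0.26), and Per1 by 0.26 (SE 0.20) and 0.14 (SE 0.14). Nr1d1 differed by 0.34 (SE 0.14) and 0.52 (SE 0.12), and Nr1d2 by 0.21 (SE 0.14) and 0.44 (SE 0.12), while Cry1 differed by 0.07 and -0.07 (SE 0.12 each). With reversal in the HFD-STZ model, 12 of the 16 had a higher and 4 a lower mean. An unadjusted p-value under 0.05 in limma was found for 2, both higher, against 6.48% of all genes. The groups did not overlap for 1 of the 16, against 0.23% of all genes. This was Per1, which glucocorticoids also induce, with a difference of 0.52 (SE 0.12).

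Further targets of the clock were read from a list of their own. Of the 8 genes of the clock output list, enzymes and regulators such as Wee1, Usp2 and Noct, 0 passed either threshold at 16 weeks in either model, and their median difference was 0.09 in HFD and -0.05 in HFD-STZ mice. Wee1, a kinase that restrains mitosis, differed by 0.16 (SE 0.28) and -0.02 (SE 0.30), and Noct, a deadenylase-related protein, by 0.34 (SE 0.21) and 0.00 (SE 0.20). At 24 weeks 4 of the 8 had a higher and 4 a lower mean in HFD than in SD mice, 0 with an unadjusted p-value under 0.05, and the median was -0.03. In HFD-STZ mice of that age all 8 had a lower mean, 2 with such a p-value, and the median was -0.17. The list of 8 glucocorticoid-responsive genes shares Per1 with the core clock list and Tsc22d3 with the clock output list, so counts from these lists are not separate. Of these 8, 1 was lower with an unadjusted p-value under 0.05 in HFD mice and 5 in HFD-STZ mice of 16 weeks. At 24 weeks 0 of these 8 had such a p-value in HFD mice and 6 in HFD-STZ mice, all lower. Of 10 immediate early genes, 2 higher and 1 lower in HFD mice and 3 higher and 2 lower in HFD-STZ mice had one at 16 weeks. Of 8 hypoxia genes found, 0 in HFD mice and 1, higher, in HFD-STZ mice had one. The shares of all genes with such a p-value were 8.55% and 8.41% at 16 weeks and 9.05% and 5.99% at 24 weeks. None of these genes passed the adjusted threshold at either age. What part hormone, handling or oxygen had in the members' values was not tested.

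Whether the members move together from mouse to mouse was asked of the deviations of each value from its group mean, which hold none of the group contrasts. Over the 53 samples, 28 relations were computed, the 21 pairs of members and each member against Arntl, with a 2-sided permutation test of 100000 shuffles within groups and Benjamini-Hochberg adjustment over the 28. An adjusted p-value under 0.05 was found for 22 relations, 13 positive and 9 negative, and by Spearman's rho for 21. Of the member pairs, 16 of 21 passed. Dbp and Ciart moved most closely together (r = 0.89, rho = 0.86, permutation p = 1e-05 for both, the smallest the shuffles can give, adjusted p = 4e-05 for r and 3.5e-05 for rho), and r was 0.87 without the 2 samples farthest from the median of Dbp. Dbp and Tef had r = 0.82 and rho = 0.78, Tef and Bhlhe40 r = 0.73 and rho = 0.75, Tef and Hlf r = 0.71 and rho = 0.82, and Tef and Ciart r = 0.71 and rho = 0.67, each with the same smallest permutation p. Without the 2 farthest samples these were r = 0.79, 0.67, 0.74 and 0.69.

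**Figure D3:**
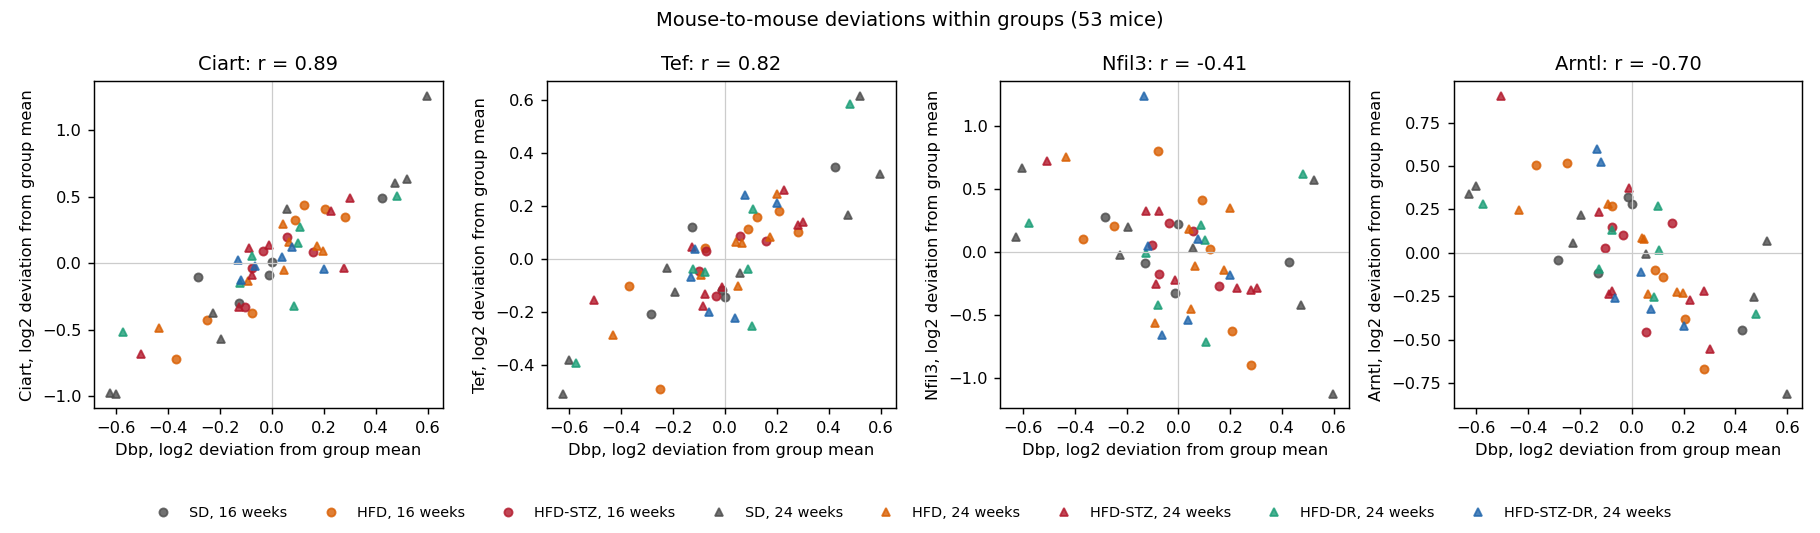
Deviation of Ciart, Tef, Nfil3 and Arntl from their group means (vertical axes, log2) against that of Dbp (horizontal axis, log2) in 53 samples, with circles for 16 and triangles for 24 weeks and colours for diet and treatment. Ciart and Tef rise with Dbp (r = 0.89 and 0.82), Arntl falls with it (r = -0.70), and Nfil3 is more loosely opposed (r = -0.41).

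Nfil3 ran against Dbp and Ciart. Against Dbp it had r = -0.41 and rho = -0.40 (permutation p = 0.00477 and 0.00606, adjusted p = 0.00703 and 0.00943), and r was -0.38 without the 2 farthest samples. Against Ciart it had r = -0.43 and rho = -0.36 (permutation p = 0.00359 and 0.0172, adjusted p = 0.00558 and 0.0242), and r was -0.37 without them. Against Arntl, in contrast, Nfil3 had r = 0.51 and rho = 0.40 (permutation p = 0.00062 and 0.00651, adjusted p = 0.00108 and 0.00959), with r = 0.39 without them. Against Hlf, Nfil3 passed by r but not by rho (r = -0.30, rho = -0.24, permutation p = 0.0277 and 0.106, adjusted p = 0.0353 and 0.135), and r was -0.28 without the 2 farthest samples. Nfil3 and Tef were not shown to move together in the main test (r = -0.15, rho = -0.24, permutation p = 0.356 and 0.115, adjusted p = 0.399 and 0.14). For this pair r was -0.35 without the 2 farthest samples and -0.39 with the run of library numbers removed, so the main value depended on these choices. Arntl ran against Dbp (r = -0.70, rho = -0.71, permutation p = 1e-05 for both, adjusted p = 4e-05 and 3.5e-05) and against Ciart (r = -0.66, rho = -0.63, the same p-values), with r = -0.69 and -0.60 without the 2 farthest samples. Bhlhe41 passed with Dbp (r = 0.38), Ciart (r = 0.49) and Nfil3 (r = -0.49, rho = -0.48). With Nfil3, its r was -0.48 without the 2 farthest samples and -0.38 with the run of library numbers removed. Bhlhe41 did not pass with Tef, Hlf, Bhlhe40 or Arntl, where r lay between -0.18 and 0.25. Removing the run of library numbers as well turned the sign of none of the 22 relations, and 25 of 28 then passed. Inside the 6 groups of 6 or more samples, r between Dbp and Ciart lay between 0.27 in HFD-STZ-DR and 0.97 in 24-week SD mice, and r between Dbp and Arntl between -0.96 in 16-week HFD and -0.68 in HFD-DR mice. The relations of Nfil3 with Dbp, Ciart and Arntl changed sign between groups. The r of Nfil3 with Dbp lay between -0.86 in 24-week HFD-STZ and 0.17 in HFD-DR mice. With Ciart it lay between -0.88 in 24-week HFD-STZ and 0.12 in HFD-STZ-DR mice, and with Arntl between -0.37 in HFD-DR and 0.91 in 24-week SD mice.

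**Figure D4:**
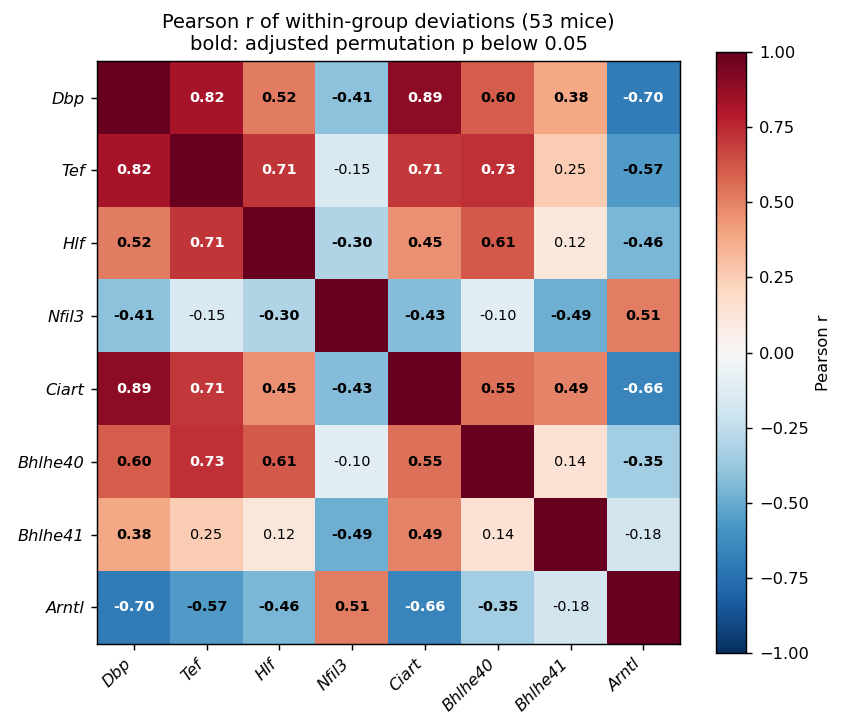
Pearson r between the within-group deviations of the 7 genes and Arntl over 53 samples, from -1 (blue) to 1 (red), with relations past an adjusted permutation p of 0.05 in bold. Dbp, Tef, Hlf, Ciart and Bhlhe40 form a positive block, Arntl is negative to all 7 but Nfil3, and Bhlhe41 has the fewest relations in bold.

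Single animals can be followed in the 24-week SD group, where the spread of Ciart was widest. Replicates 2 and 3 had the lowest Dbp of the group (11.46 and 11.48) and the lowest Ciart (7.70 and 7.69), together with the highest Arntl (10.24 and 10.28). Replicate 4 had the highest Dbp (12.68) and Ciart (9.93), the lowest Arntl (9.09) and the lowest Nfil3 (7.41). Replicate 5 was high in Dbp (12.61) and Tef (13.89), and yet also high in Nfil3 (9.11), with Arntl at 9.96. Replicate numbers here only name a sample.

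Among 18068 genes compared with Dbp by the r of within-group deviations over the 53 samples, the 5 most alike were Ciart (r = 0.89), Tef (0.82), Per2 (0.69), Nr1d2 (0.67) and Nr1d1 (0.67), which are all genes of the clock. The gene with the most negative r was Arntl (-0.70). No more than 2 genes reached an r of 0.7 with Dbp, and the median r over all genes was 0.00. For Nfil3 the 5 most alike were Apba3 (r = 0.75), Fam195a (0.75), Acads (0.74), Tufm (0.74) and Mtch2 (0.73). Acads is an enzyme of mitochondrial fatty acid oxidation, Tufm the mitochondrial elongation factor and Mtch2 a protein of the outer mitochondrial membrane, and none of the 5 belongs to the clock lists. With the run removed, r of these 5 with Nfil3 lay between 0.58 and 0.66, and that of the 5 with Dbp between 0.69 and 0.90. The number of genes at an r of 0.7 or more was 2 for Ciart, 13 for Nfil3, 16 for Bhlhe40, 45 for Hlf, 49 for Tef and 161 for Bhlhe41. These values are a description over genes that share their libraries.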

How the data were processed

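Sciatic nerve RNA of 53 samples in 8 groups was analysed. Per the study's methods, libraries kept no strand and held polyadenylated RNA, while the labels' extract protocol names another extraction and library kit. Per the submitters' processing notes, reads were aligned with HISAT2 (mm10), counted with featureCounts and compared with DESeq2, with versions not given in the sources used here. The deposited files give 1 log2 value per gene and sample, normalized by the authors in a way not given in the sources used here. They are not counts, so count models were not used, and the depth behind each value is unknown.

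Groups were taken from the labels. Members and lists were chosen with earlier results of these data known. Each comparison was fitted with limma 3.58.1 (R 4.3.3) on its own groups, with empirical Bayes variances following mean level. Genes with a mean under 3.32 (log2 of 10) and 25 genes that exceed 22 in a sample did not enter. P-values were Benjamini-Hochberg adjusted over all genes tested. Permutation tests used numpy 2.4.6 in Python 3.11.15, and both tests were checked on simulated data. Named genes are all members, core clock and output genes past the threshold, 8 loop genes fixed with the list, and the 5 genes most alike to Dbp and to Nfil3. Wee1, Usp2 and Noct are named as examples of their list and Npas2 for the size of its difference, all chosen after their values were seen. A new run of library numbers starts at a gap above 3. Alternatives were no filter, all 8 groups in 1 fit without and with the run, median centring, leaving out each sample, and for correlations the run removed, centring and leaving out the 2 farthest samples. Positions are from GENCODE M21 (GRCm38), promoters from RefSeq (GRCm38.p6). Results of 1 marker list are not reported here.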

Additional observations from a re-analysis of the deposited data

Results flagged for a closer look

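In 4 of the 56 sets of a member and a group, 1 sample stood apart from the others by Dixon's criterion, which chance alone meets in about 1 of 20 sets. Tef was 12.78 in replicate 7 of the 16-week HFD mice, against 13.17 to 13.45 in the others. Hlf was 10.54 in replicate 4 of the 24-week HFD mice, against 11.04 to 11.27. Bhlhe40 was 12.16 in replicate 7 of the 24-week HFD-STZ mice, against 12.63 to 12.93. Bhlhe41 was 10.39 in replicate 1 of the 16-week HFD-STZ mice, against 9.86 to 9.99 in the others.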

How the results depend on the processing

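Of the 84 member differences, 40 were over 0.2 in size on the log2 scale. Among the 4 alternatives, no filter and all 8 groups in 1 fit leave a difference of group means as it is, so they could not change a sign. With median centring, with the run as a covariate or when 1 sample was left out, 0 of the 40 changed sign. Of all 84, 5 changed sign under 1 or more of the 4 alternatives, each of them 0.024 or less in size. This count does not cover leaving out 1 sample, for which sign changes of differences of 0.2 or less were not counted. None of these 4 alternatives moved a member difference by more than 0.12. A member passed the adjusted threshold in 1 of 191 refits without 1 sample, Dbp for HFD-STZ against SD at 16 weeks without SD replicate 5. The relations past the threshold in the correlation of deviations numbered 22 in the main test, 22 with centring, 22 without the 2 farthest samples and 25 with the run removed. Samples could not be paired by replicate number, because the labels carry none. The run of library numbers was instead added as a covariate, and differences within runs are given for 16 weeks and for age.

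The number of genes past the adjusted threshold depended more on the fit. All 8 groups in 1 fit gave 7 genes for HFD against SD at 16 weeks (1 in the main fit), 1 for HFD-STZ against SD at 16 weeks (0), 62 and 16 for these at 24 weeks (22 and 6), 1 for HFD-STZ against HFD (0), 18 and 47 for reversal in HFD and HFD-STZ mice (2 and 15), and 45 and 13 for age in SD and HFD-STZ mice (0 and 0). Adding the run as a covariate, these numbers were 16, 1, 98, 17, 2, 27, 32, 122 and 30, and 22 for age in HFD mice (12). Without the filter, 4 genes passed for HFD-STZ against HFD, 0 and 1 for the reversals, 1 for the HFD effect by age and 98 for the run (337). Centring gave 42 for HFD against SD at 24 weeks, 8 for reversal in HFD mice, and 6 and 1 for age in HFD and HFD-STZ mice. Leaving out 1 sample gave 1 to 4 genes for HFD and 0 to 1 for HFD-STZ against SD at 16 weeks, 13 to 44 and 4 to 19 at 24 weeks, 0 to 1 for HFD-STZ against HFD, 0 to 10 and 0 to 167 for the reversals, and 0 to 4, 0 to 17 and 0 to 1 for age in SD, HFD and HFD-STZ mice. The cause of these changes was not tested. The study's methods give only an approximate number of reads per sample, and the reads behind single values are unknown. Which values sequencing depth limits therefore cannot be given.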
